A study of Mus musculus with 6 samples.

Results

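Intermediate filament transcripts were measured in sham-operated mouse sciatic nerve for 9 genes, picked by symbol: Nefl, Nefm, Nefh, Prph, Gfap, Nes, Vim, Des and Synm. They are 9 of the 54309 genes in the files and hold 28 of the 140789 transcripts. They were set out by the cells they are best known from, with Nefl, Nefm, Nefh and Prph as axonal, Gfap and Nes as Schwann cell, Vim as stromal, and Des and Synm as muscle filaments. The left sciatic nerve of C57BL/6 mice, 6 to 8 weeks old, was exposed without being cut and was collected 24 h later. There were 3 female and 3 male samples, each RNA of 2 pooled mice, so every animal of both sexes had undergone the sham operation. No unoperated nerve and no cut nerve was analysed here. The pools are named female replicates 1 to 3 and male replicates 1 to 3, and the replicate numbers are not stated to tie a female to a male pool.

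Intermediate filaments are rope-like polymers of the cytoskeleton, and each cell type builds them from its own set of subunits. In large axons the light, medium and heavy neurofilament proteins set the axon's calibre, and peripherin joins them in peripheral neurons, while their mRNAs are made in cell bodies that lie outside the nerve trunk. Schwann cells and fibroblasts make vimentin, nonmyelinating Schwann cells also make GFAP, Schwann cells can make nestin, and desmin and synemin tie together the contractile units of muscle.

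All 9 proteins share a coiled rod that ends in a conserved motif, and the 30 coding bases of that motif are shown here. They were located by a preset amino acid pattern of the motif, so part of their likeness follows from the search. Capitals mark the 12 positions at which all 9 genes carry the same base, and each line runs 5′ to 3′ on the coding strand of the mouse reference genome, build GRCm39.
Nefl: gCtTACaGaaaacTctTgGAaGgcGAagag
Nefm: gCgTACaGgaaacTccTaGAgGggGAagag
Nefh: gCtTACaGaaagcTccTgGAaGgcGAagag
Prph: aCcTACaGgaagcTacTgGAaGggGAggag
Gfap: aCcTACaGgaaatTgcTgGAgGgcGAagaa
Nes: aCaTACaGgactcTgcTgGAgGctGAgaac
Vim: aCcTACaGgaagcTgcTgGAaGgcGAggag
Des: aCcTACcGgaagcTacTgGAgGgcGAggag
Synm: aCcTACaGggcctTgtTgGAaGgaGAaagc

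Counted against Vim, 28 of the 30 bases were the same in Prph, 27 in Des, 25 in Gfap and in Nefh, 23 in Nefl, 22 in Nefm and in Nes, and 20 in Synm. The Vim bases lie in 1 exon at chr2:13585015-13585044 on the plus strand. In 4 genes, Prph, Gfap, Vim and Des, the motif lies within a single exon, and in the other 5 an exon junction follows base 8. Longer identical stretches were few. Of all stretches of 31 bases in their transcripts, Nefl, Nefh, Gfap and Nes shared 0 with any other gene of the files in the same orientation. Prph shared 11 of 2208 with Des and Nefm, Des shared 6 of 3858 with Prph, and Vim shared 9 of 4812 with the keratin gene Krt75. Nefm shared 14 of 5748, found between them in 556 other genes, and 5 of the 14 were shared with Prph. Synm shared 1 of 8021, with Pitpnm1.

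Nefl and Nefm are neighbours in opposite orientation on chromosome 14, at chr14:68321268-68326544 on the plus strand and chr14:68320039-68362305 on the minus strand. A second Nefm transcript, Nefm-202, overlaps the exons of Nefl by 1152 bases in antisense, and the main transcript Nefm-201 overlaps them by 0. The libraries were strand-specific, and Nefm-202 took at most 2 estimated reads in any pool. Des and Synm also overlap antisense genes, by 260 stretches of 31 bases shared with Gm15179 for Des and by 489 shared with Gm45102 and Ttc23 for Synm.

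The pools held 55949876 to 66285694 estimated read pairs in females and 59165914 to 78473057 in males. TPM divides reads by transcript length and scales every pool to the same total, so that genes can be set beside each other within a pool. A gene's percentile is its place by mean TPM among the 16310 genes tested, of which the median gene had 15.1 TPM, the 25th percentile 3.83 TPM and the 90th 93.2 TPM. Female replicate 2 stood apart in skeletal muscle transcripts, with 4369 TPM summed over 19 muscle genes, against 53.2 to 331 TPM in the other 5 pools. Schwann cell markers were abundant in every pool, and the sum of 6 of them was lowest in female replicate 1, at 22980 TPM against 27580 to 30110 TPM in the others.

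By TPM, the transcripts of these 9 filament genes were almost wholly Vim. Over the 6 pools Vim averaged 2519 TPM, at percentile 99.8, and made up 92.6% to 95.0% of the TPM summed over the 9 genes. Nes followed at 116.6 TPM (percentile 92.3), Des at 17.8 TPM (54.3), Synm at 5.33 TPM, Prph at 3.66 TPM (24.4), Gfap at 3.03 TPM (21.7), Nefl at 2.44 TPM (19.2), Nefh at 2.26 TPM (18.3) and Nefm at 1.55 TPM (13.9). Per length, Vim was 1030 times as abundant as Nefl and 21.6 times as abundant as Nes. Among the lower genes the order is not firm for Nefl, Nefh and Gfap, since it changed between pools. Within each of the 6 pools Synm lay above Prph, and Prph above Nefl, Nefm and Nefh, though the ranges of Prph and Synm over the pools overlapped.

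**Figure D1:**
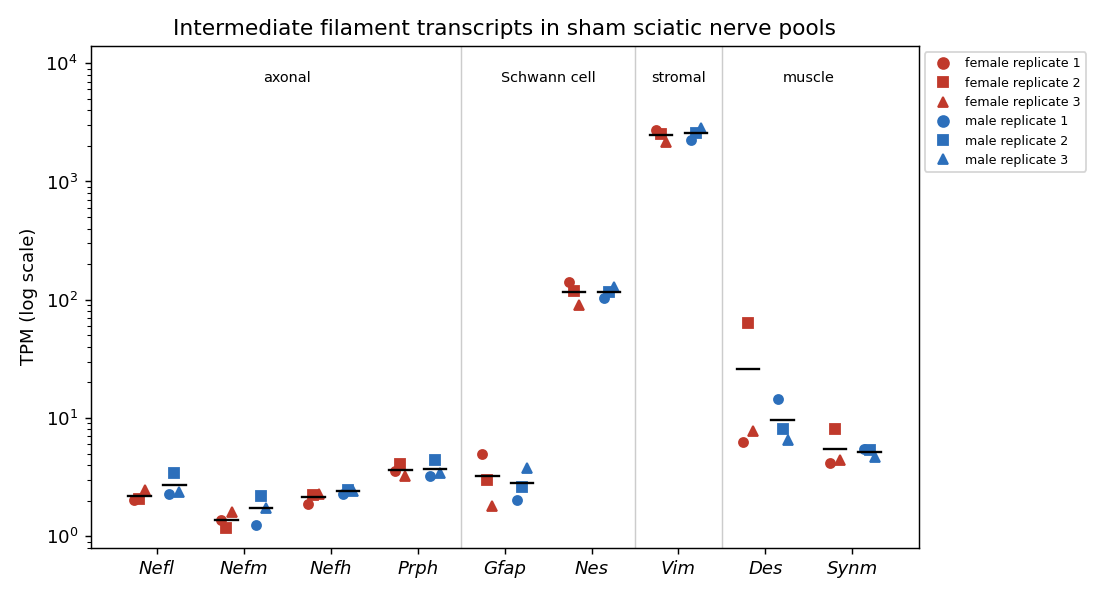
TPM on a log scale for the 9 filament genes, with females (red) left of males (blue), a point for each pool and a black line for the mean of each sex (n = 3 pools). Vim lay between 2169 and 2840 TPM and Nes between 90.7 and 142.2 TPM, the axonal genes lay between 1.17 and 4.42 TPM, and Des had 1 high pool, female replicate 2 at 63.9 TPM.

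The axonal filaments were low but counted in every pool. Nefl, the light subunit on which the other neurofilament proteins assemble, was at 2.04, 2.07 and 2.46 TPM in female replicates 1 to 3, against 2.30, 3.42 and 2.35 TPM in male replicates 1 to 3. The highest pool was male replicate 2, and the groups overlapped. Behind these values stood 232 to 339 estimated reads in female pools and 276 to 454 in male pools.

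Nefm, the medium subunit, whose long tail carries many phosphorylation sites, was at 1.37, 1.18 and 1.59 TPM in female pools, against 1.23, 2.17 and 1.75 TPM in male pools. Nefh, the heavy subunit, was at 1.87, 2.24 and 2.28 TPM in female pools, against 2.30, 2.47 and 2.41 TPM in male pools. Every female pool lay below every male pool for Nefh in TPM, but not in counts scaled between libraries (TMM), in which the groups overlapped. Prph, the peripheral neuron filament, was at 3.57, 4.06 and 3.24 TPM in female pools, against 3.25, 4.42 and 3.44 TPM in male pools. Male replicate 2 was the highest pool for each of the 4 axonal genes, at 1.40 times the mean of the 6 pools for Nefl and for Nefm, 1.21 times for Prph and 1.09 times for Nefh.

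The balance within the neurofilament triplet was narrow. Nefl took 38.6%, 37.7% and 38.8% of the summed TPM of Nefl, Nefm and Nefh in female pools, against 39.4%, 42.4% and 36.1% in male pools. The difference, female minus male, was -0.91 percentage points, within the spread between pools (two-sided exact permutation p = 0.7, where 3 against 3 pools can give no p below 0.1). Nefm held 21.2% to 26.96% and Nefh 30.7% to 40.8% over the 6 pools. Without male replicate 2 the Nefl difference was 0.62 points, of the other sign. Peripherin mRNA stood at 0.678, 0.740 and 0.513 of the triplet sum in female pools, against 0.558, 0.549 and 0.529 in male pools.

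Set against the other filaments, the 4 axonal genes held 0.304%, 0.350% and 0.419% of the TPM of all 9 genes in female pools, against 0.380%, 0.457% and 0.332% in male pools. The female minus male difference was -0.032 percentage points, and the groups overlapped (two-sided exact permutation p = 0.6). In bulk tissue a smaller share of a cell type and less RNA per cell cannot be told apart. Without male replicate 2 the difference was 0.0015 points.

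Of 17 neuron and axon markers, 10 passed the filter on low counts. By edgeR 0 were called and 0 reached an unadjusted p under 0.05, and DESeq2 called 0. Sncg, which encodes gamma-synuclein, averaged 475 TPM, and Uchl1, a neuronal ubiquitin hydrolase, 54.1 TPM. Scn10a, the sensory neuron sodium channel, and Chat, which makes acetylcholine in motor neurons, stayed under 0.05 TPM in all pools. The markers with the smallest p were Thy1, a surface protein of neurons and other cells, and Snap25, a synaptic vesicle fusion protein (edgeR unadjusted p = 0.081 and 0.082). Thy1 was highest in male replicate 1, at 34.7 TPM, and Snap25 in male replicate 2, at 4.46 TPM. Male replicate 2, the top pool of the axonal filaments, was the top pool of 3 of the 10 markers tested (Snap25, Gap43 and Calca). The markers summed to 584.5 to 674.0 TPM in female pools and 608.1 to 663.2 TPM in male pools, with male replicate 2 at 652.8 TPM, and Sncg alone made up 71.3% to 76.5% of that sum. Ina, the alpha-internexin of central neurons, had 25 reads over all pools, a mean of 0.036 TPM.

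The Schwann cell filaments differed among pools more than between the sexes. Gfap, the glial filament of nonmyelinating Schwann cells, was at 4.96, 3.00 and 1.82 TPM in female pools, against 2.02, 2.61 and 3.80 TPM in male pools. Nes, an intermediate filament protein of immature and dividing cells, was at 142.2, 118.2 and 90.7 TPM in female pools, against 103.0, 116.4 and 128.9 TPM in male pools. Both genes had the same order of pools, lowest in female replicate 3 and highest in female replicate 1, so that both ends of the range were female. Gfap spanned 2.73 times from lowest to highest pool, and Nes 1.57 times. The 6 summed Schwann cell markers had another order. They were lowest in female replicate 1, at 22980 TPM, and at 28900 TPM in female replicate 3. Male replicate 3, the next highest pool in both genes, was highest in these markers, at 30110 TPM.

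Vim, the filament of fibroblasts, endothelium, macrophages and Schwann cells alike, was at 2744, 2520 and 2169 TPM in female pools, against 2252, 2590 and 2840 TPM in male pools. Its lowest pools were again female replicate 3 and male replicate 1, as for Gfap and Nes, its highest were male replicate 3 and female replicate 1, and its range was 1.31 times. Total reads ran the other way at the ends: female replicate 3 and male replicate 1, low in all 3 genes, were the deepest libraries, and female replicate 1, high in all 3, the shallowest. The part of depth in this order was not tested. The summed fibroblast markers were at 6108 to 6736 TPM in female pools and 6312 to 7755 TPM in male pools. Female replicate 1, among the highest in Vim, had the lowest sum, with female replicate 2 close above it at 6126 TPM. Taken singly, only Lum was lowest in female replicate 1, and Pdgfra was highest there. Of 7 such markers edgeR called 0, with 2 at an unadjusted p under 0.05, Col1a1 and Col1a2, the chains of type I collagen, with log2 fold changes of -0.47 and -0.34. DESeq2 called these 2, both lower in females, where it called 0.975% of all genes. Of 6 nonmyelinating Schwann cell markers all passed, with 0 called by edgeR or DESeq2 and 0 at an unadjusted p under 0.05, and their sum was at 162.5 to 174.2 TPM in female pools and 158.2 to 165.5 TPM in male pools, a narrower range than that of Gfap. Of 6 astrocyte markers 4 passed, led by Aldh1l1 at 16.2 TPM, and of 5 oligodendrocyte markers 2 passed, led by Cnp at 430 TPM, which myelinating Schwann cells also make.

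**Figure D2:**
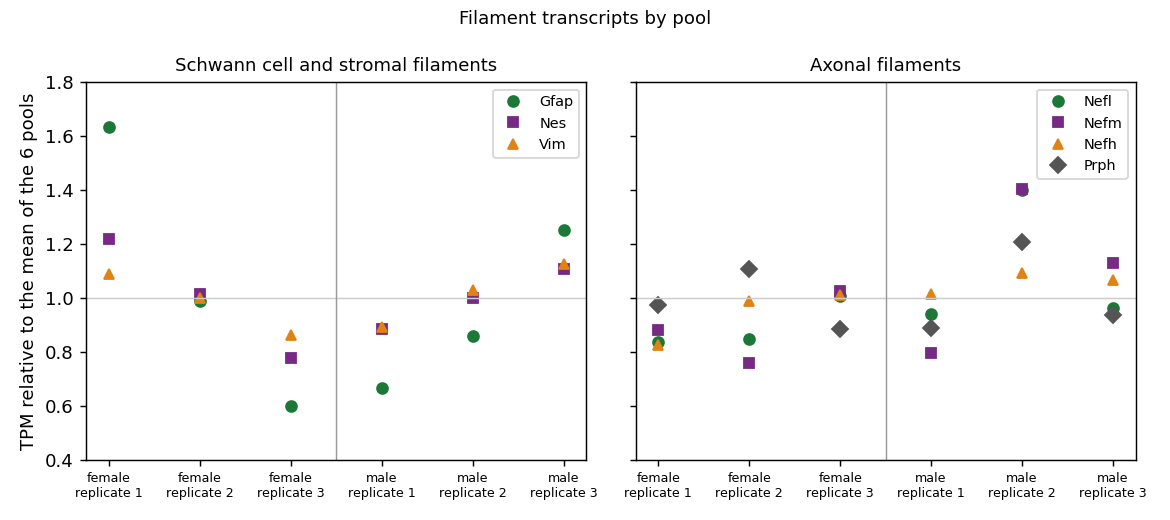
TPM of each pool divided by the mean of the 6 pools, with female pools left of male pools and a symbol for each gene. On the left, Gfap, Nes and Vim are low in female replicate 3 and male replicate 1 and high in female replicate 1 and male replicate 3, with Gfap between 0.599 and 1.63. On the right, the axonal genes peak in male replicate 2.

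Of the muscle filaments, Des took the same order of pools as the skeletal muscle transcripts. Synm did so apart from a swap of female replicate 3 and male replicate 3. From lowest to highest pool Synm spanned 1.94 times, against 10.3 times for Des. Des, desmin, which links the contractile units of muscle fibres at their Z-discs, was at 6.21, 63.9 and 7.69 TPM in female pools, against 14.4, 8.12 and 6.52 TPM in male pools. Female replicate 2 was 7.44 times the mean of the other 5 pools, which ran from 6.21 to 14.4 TPM, and the groups overlapped. The order of the 6 pools in Des, from female replicate 1 through male replicate 3, female replicate 3, male replicate 2 and male replicate 1 to female replicate 2, was that of the summed skeletal muscle genes, which were at 53.2, 4369 and 117 TPM in female pools, against 331, 128 and 108 TPM in male pools. Acta1, the skeletal muscle actin, was at 739 TPM in female replicate 2 and at 2.11 to 91.7 TPM in the others.

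Synm, synemin, which binds desmin and vimentin but does not form filaments alone, was at 4.13, 7.99 and 4.38 TPM in female pools, against 5.44, 5.36 and 4.70 TPM in male pools. Female replicate 2 was again highest, at 1.67 times the mean of the others, and the other pools ran from 4.13 to 5.44 TPM. Smooth muscle and pericytes also make desmin. Their 12 markers all passed, 0 were called by edgeR or DESeq2, and 3 had an unadjusted p under 0.05. Their sum was at 506.7 to 651.7 TPM in female pools and 458.0 to 587.1 TPM in male pools. Female replicate 1, lowest in Des, had the highest sum. That sum was led by Tagln and Acta2, at means of 265 and 128 TPM, both highest in female replicate 1. Myh11, Rgs5, Notch3, Kcnj8 and Cspg4 were lowest in that pool, and the other markers had neither end there.

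**Figure D3:**
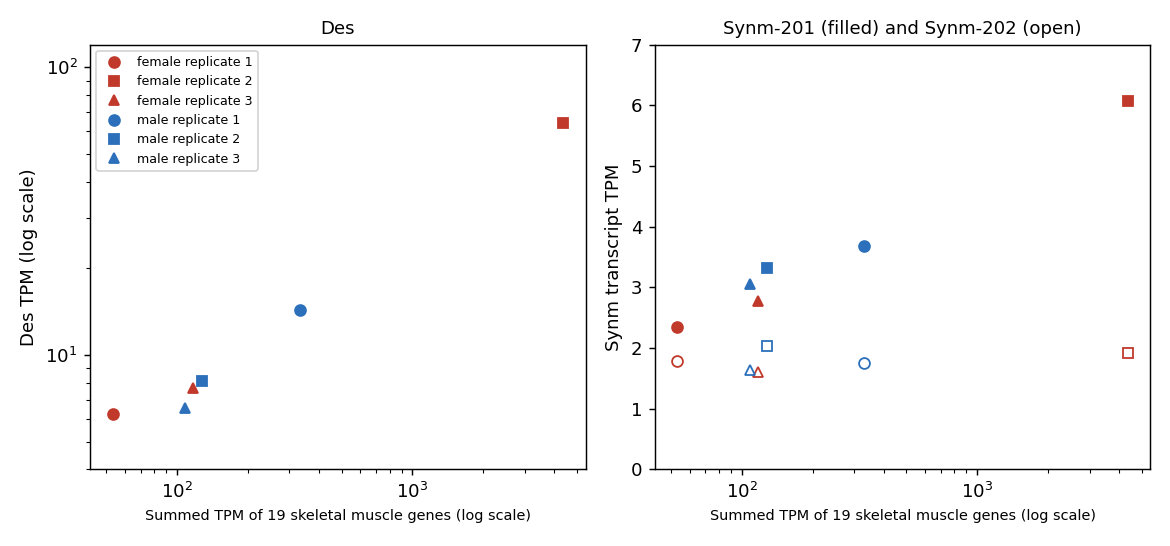
Des TPM (left, log scale) and the TPM of Synm-201 (right, filled) and Synm-202 (right, open) against the summed TPM of 19 skeletal muscle genes (log scale), with a point for each pool, females red and males blue. Des and Synm-201 are highest in female replicate 2, at 63.9 and 6.08 TPM, and Synm-202 lies between 1.61 and 2.04 TPM in all pools.

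Between females and males none of the 9 genes was called. All 9 passed the filter on low counts (a CPM, counts scaled to library size, of 0.5 or more in 3 or more pools). By edgeR's quasi-likelihood test with Benjamini-Hochberg adjustment over the 16310 genes, 0 of 9 were called at an adjusted p under 0.1, where 10 genes in all, 0.0613%, were (0.0245% higher and 0.0368% lower in females). 0 of 9 reached an unadjusted p under 0.05, against 6.11% of all genes, and for 0 of 9 did the normalized counts of the sexes fail to overlap, against 11.2% of all genes (5.16% with every female above every male, and 6.04% with every female below). DESeq2 called 0 of the 8 members for which it gave an adjusted p, with Des left without a value, and 159 genes in all. Adjusted p ran from 0.864 to 0.999. A p that misses the threshold does not show that the sexes have equal levels.

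The fold changes, female over male on the log2 scale, were below 0 for 5 genes and above 0 for 4, with a median of -0.01, where 49.4% of all genes lay below 0 and their median was 0.00. The neurofilament genes had fold changes of -0.27 ± 0.19 for Nefl, -0.30 ± 0.22 for Nefm and -0.13 ± 0.12 for Nefh (log2 ± SE, edgeR adjusted p = 0.864, 0.87 and 0.89). Prph stood at -0.01 ± 0.15 (adjusted p = 0.999, edgeR). As means of 3 pools with SD, Nefl had 2.19 ± 0.23 TPM in female pools against 2.69 ± 0.63 TPM in male pools, and Nefm had 1.38 ± 0.21 TPM in female pools against 1.72 ± 0.47 TPM in male pools. The fold change of Gfap was 0.22 ± 0.37, that of Nes 0.04 ± 0.17 and that of Vim -0.01 ± 0.12 (log2 ± SE, edgeR adjusted p = 0.942, 0.98 and 0.993). Vim had 2478 ± 290.1 TPM in female pools against 2560 ± 295.1 TPM in male pools (SD, n = 3 each), and the standard error of its fold change was the smallest of the 9.

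Des had the largest fold change of the 9, 1.52 ± 1.16, and the widest error (edgeR adjusted p = 0.88). It was set by female replicate 2: without that pool the fold change of Des was -0.46 ± 0.33 and that of Synm -0.25 ± 0.09, where Synm over all pools stood at 0.10 ± 0.24 (log2 ± SE, edgeR adjusted p = 0.999 for both without the pool). For Synm without that pool the unadjusted p was 0.025, the smallest of the 9 genes under any alternative run. Of 18 skeletal muscle genes tested, 17 had a fold change above 0, with a median of 3.08. By edgeR 0 of them were called and 0 had an unadjusted p under 0.05, and DESeq2 left 16 without an adjusted p and called 0.

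**Figure D4:**
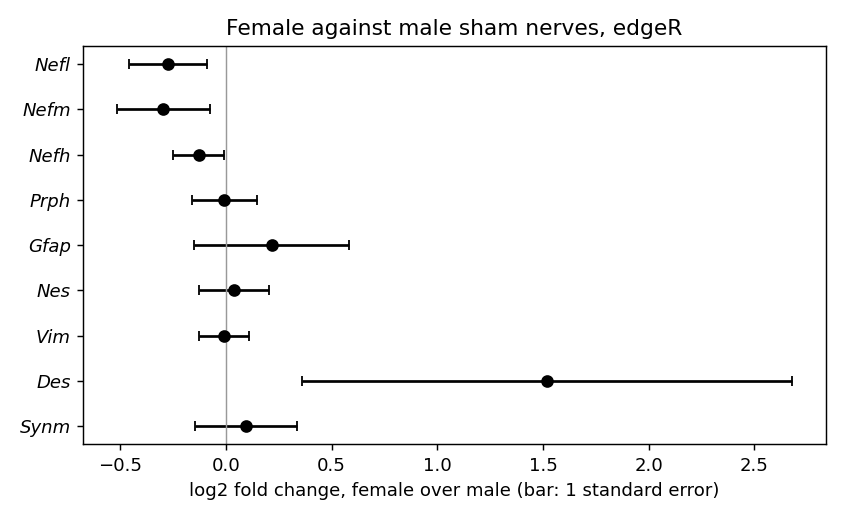
Log2 fold change, female over male, of the 9 genes by edgeR, with a bar of 1 standard error to each side (n = 3 pools per sex) and a grey line at 0. The genes other than Des lie between -0.30 and 0.22, and Des at 1.52 has the widest bar.

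Each gene had 1 leading transcript, and in Vim, Synm, Gfap and Prph others held a larger part of the TPM than in the rest. Vim-201, the full coding transcript, was at 1809, 1776 and 1567 TPM in female pools, against 1714, 1885 and 2022 TPM in male pools. Vim-206, a coding transcript that skips an exon of 86 bases, was at 337.8, 193.3 and 119.2 TPM in female pools, against 84.2, 191.0 and 77.0 TPM in male pools. The groups overlapped for both. The skipped exon, chr2:13586424-13586509 on the plus strand of GRCm39, is shown as the coding exon that Vim-201 has and Vim-206 lacks. In the files the 2 transcripts are 2193 and 1777 bases long, so they differ there by more than this exon.
Vim skipped exon: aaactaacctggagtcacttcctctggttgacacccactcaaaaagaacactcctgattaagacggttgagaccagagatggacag

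Vim-203, an annotated retained-intron transcript of 535 bases, held 18.7% to 25.2% of the TPM of Vim in all pools. It was at 563.1, 521.5 and 457.4 TPM in female pools, against 433.4, 484.6 and 715.6 TPM in male pools, and the groups overlapped. Without noncoding transcripts the mean TPM of Vim over the 6 pools was 1969. Vim-203 starts in 52 intron bases (chr2:13584180-13584231, plus strand) ahead of an exon it shares with Vim-201, and Vim-201 lacks these bases.
Vim-203 intron bases: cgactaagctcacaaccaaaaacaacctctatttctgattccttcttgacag

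The Vim-201 share was 65.9%, 70.5% and 72.2% in female pools, against 76.1%, 72.8% and 71.2% in male pools (two-sided exact permutation p = 0.2, adjusted p = 0.70 over 7 genes). The quantities are estimates, since reads from the bases the transcripts share are split by the authors' software, and the files give no error for the split.

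Gfap ends in alternative ways. Gfap-201, which encodes the standard form with a short tail, was at 3.70, 2.56 and 1.40 TPM in female pools, against 1.73, 2.27 and 3.03 TPM in male pools. Gfap-202, which ends its coding sequence in another exon, was at 0.848, 0.441 and 0.413 TPM in female pools, against 0.289, 0.338 and 0.508 TPM in male pools, from 34.5 to 76.7 estimated reads. The coding bases of the last exon of Gfap-202 (chr11:102782225-102782346, minus strand of GRCm39) are shown, as the ending by which it differs from Gfap-201.
Gfap-202 terminal exon: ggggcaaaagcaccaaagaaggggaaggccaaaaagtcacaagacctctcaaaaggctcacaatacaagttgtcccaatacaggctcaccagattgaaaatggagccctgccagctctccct

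The Gfap-201 share of the TPM of Gfap was 74.7%, 85.3% and 77.3% in female pools, against 85.7%, 87.0% and 79.9% in male pools (two-sided exact permutation p = 0.2, adjusted p = 0.70).

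Synm is made as a long and a short coding transcript. Synm-202 keeps 906 coding bases that are spliced out of Synm-201, and the first 60 of these are shown (chr7:67384148-67384207, minus strand).
Synm-202 segment: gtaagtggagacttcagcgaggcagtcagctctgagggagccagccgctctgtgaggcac

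The shorter Synm-201 was at 2.35, 6.08 and 2.77 TPM in female pools, against 3.69, 3.32 and 3.06 TPM in male pools. The longer Synm-202 was at 1.78, 1.91 and 1.61 TPM in female pools, against 1.75, 2.04 and 1.64 TPM in male pools. The high pool of Synm, female replicate 2, was high in Synm-201 and not in Synm-202, and the order of pools in Synm-201 had the muscle-rich pools female replicate 2 and male replicate 1 at the top. The share of Synm-201 was 56.8%, 76.1% and 63.3% in female pools, against 67.8%, 61.9% and 65.1% in male pools (two-sided exact permutation p = 1.0). The other 3 annotated Synm transcripts were listed at 0 in every pool.

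Prph-201 held 74.3% to 84.8% of the TPM of Prph in female pools and 76.4% to 94.8% in male pools, and the short transcript Prph-203, of 397 bases, most of the rest from at most 7.37 estimated reads a pool. Nes-201 held 94.9% to 97.5% of the TPM of Nes in every pool. The retained-intron transcript Nes-202 was at 3.38, 3.12 and 2.91 TPM in female pools, against 4.06, 4.23 and 4.03 TPM in male pools. These groups did not overlap, with every female pool below every male pool. The retained-intron transcript Vim-205 went the other way, at 10.4, 8.999 and 8.08 TPM in female pools, against 7.61, 7.54 and 5.05 TPM in male pools. Of 18 filament transcripts with at least 10 reads in every pool, 3 did not overlap in TPM (Nes-202, Vim-205 and Nefh-201), where 10.3% of 43970 such transcripts over all genes did not. Transcripts were not tested singly, and these were picked out after their values were seen. Des-201 held 88.4% to 98.2% of the TPM of Des, with the top share in female replicate 2, and Nefm-201 held at least 99.3% of that of Nefm. For the 7 genes with more than 1 transcript, the exact permutation tests of the leading share gave adjusted p from 0.70 to 1.0, and with 3 against 3 pools none could have passed the threshold.

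**Figure D5:**
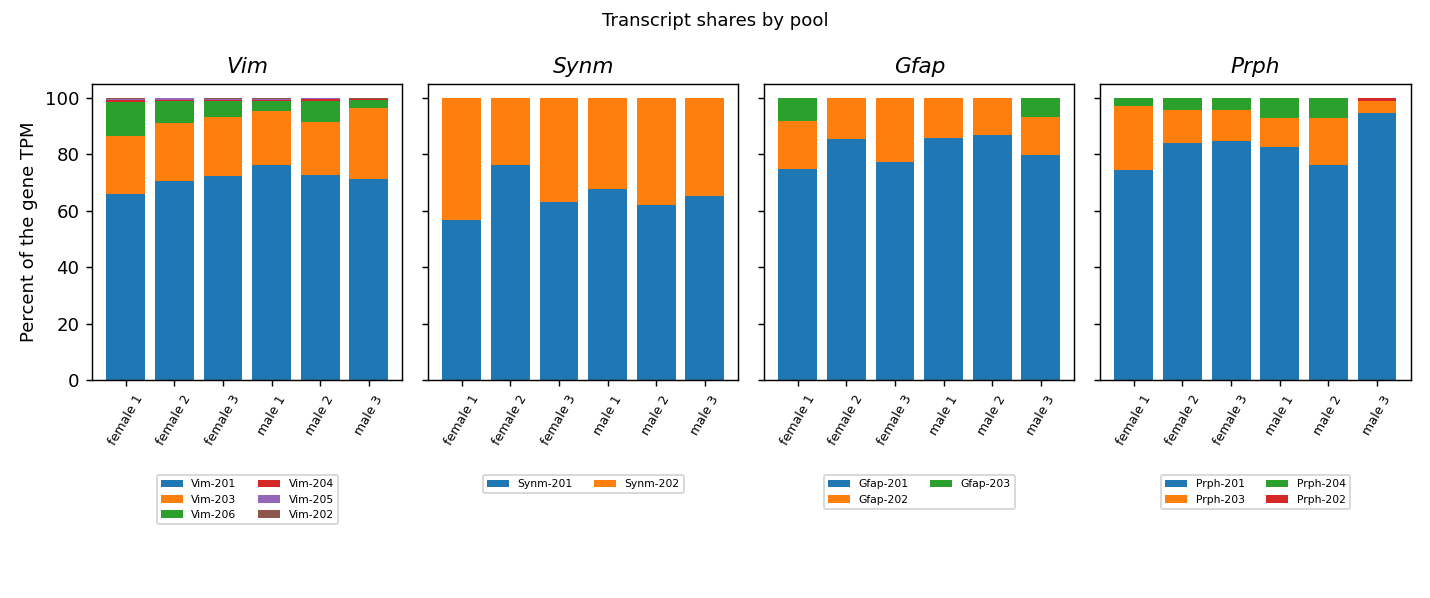
Percent of the gene's TPM held by each annotated transcript in each pool, females left of males, for Vim, Synm, Gfap and Prph, with transcripts at 0 in every pool left out. Vim-203 takes 18.7% to 25.2% of Vim, Vim-206 takes 2.71% to 12.3%, and Synm-201 is largest in female replicate 2, at 76.1%.

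Other genes of the filament system were also present. Of 21 further intermediate filament genes, 14 passed the filter and 0 were called by edgeR or DESeq2, with 2 at an unadjusted p under 0.05 and with 10 fold changes above 0 and 4 below. Lmna, the nuclear lamin, was at 200 TPM on average and Lmnb1 at 26.9 TPM. Krt80 and Krt19, keratins, had the smallest p of the list, with log2 fold changes of -0.28 and 0.19 and unadjusted p = 0.029 and 0.046 by edgeR, which did not hold after adjustment (adjusted p = 0.791 and 0.813). The epidermal keratins Krt1, Krt5, Krt14 and Krt15 and the simple epithelial keratin Krt8 stayed under 0.05 TPM in all pools. Other keratins did pass the filter, with means of 5.31 TPM for Krt7, 5.07 for Krt10, 1.06 for Krt20 and 0.545 for Krt18. Krt23, at 0.253 TPM, did not pass.

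Cytolinkers join filaments to other structures, and 5 of 7 passed, with 0 called by edgeR or DESeq2 and 0 at an unadjusted p under 0.05, led by plectin (Plec) at 70.9 TPM and dystonin (Dst) at 58.8 TPM. Chaperones and turnover factors of filaments all passed, 7 of 7, with 0 called by edgeR or DESeq2 and 1 at an unadjusted p under 0.05. Cryab, a small heat shock protein that binds desmin and GFAP, was at 1300 TPM on average. Hspb1, a small heat shock protein in which inherited variants cause axonal neuropathy in humans, was at 102, 130 and 103 TPM in female pools, against 90.2, 82.2 and 93.0 TPM in male pools. Every female pool lay above every male pool, also in normalized counts, as for 5.16% of all genes. Dnajb6, a co-chaperone, did so in TPM but not in normalized counts. For Hspb1 the log2 fold change was 0.44 ± 0.12, not past the threshold (edgeR unadjusted p = 0.0076, adjusted p = 0.587). Of 7 kinases and activators that phosphorylate neurofilaments, 7 passed, with 0 called by edgeR or DESeq2 and 0 at an unadjusted p under 0.05, led by Mapk3 at 334 TPM.

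The genes whose pattern over the 6 pools lay nearest to each filament gene were found by the root mean square difference of log2 normalized counts, each centred on its own mean, among 11589 or 11590 genes of at least 5 TPM. Nearest to Des were Hspb6 (0.289), Pygm (0.308), the muscle glycogen phosphorylase, and Ankrd23 (0.357), where the median gene was at 1.21. Nearest to Synm were Cox7a1 (0.0387), a muscle form of a respiratory subunit, and Map3k20. For Gfap they were Plekha7 (0.110), Hbegf (0.124), a growth factor of the EGF family, and Gm9797 (0.145), with a median of 0.474 over all genes compared. For Nes they were Pdgfa (0.052), a platelet-derived growth factor chain, Tubb2a and Metrn, and for Vim they were Mad2l2, Cdh1 and Ddah1.

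Among the axonal genes, Nefl was nearest to Mad2l1 (0.0838), Zfp993 and Slc16a7, and Nefm to Atg10 (0.114), Zfp993 and Gm10925. Nefh was nearest to mt-Co1 (0.0102), a mitochondrially encoded subunit of cytochrome oxidase, to Mal (0.024), a myelin protein, and to Atp8a1, and Prph to H2ax (0.0806), Cd24a and Snx7. With 6 pools and so many genes, close matches are found for most patterns, and these are given as descriptions of the pools.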

How the data were processed

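Strand-specific poly-A libraries of the 6 pools were sequenced as paired reads, trimmed by the authors with Trimmomatic 0.39 and quantified with Salmon (1.5.2 in the submitters' processing notes, 1.3.0 in the paper's resource list) on GENCODE mouse transcripts (the paper names M29, the file names M27). The deposited estimated counts are per transcript, need not be whole and carry no normalization. The deposited TPM are scaled by the authors' software for effective length and to the same total in each pool, with no correction for composition between pools. The deposited lengths and effective lengths, another kind of value, served for length offsets. The DESeq2 and batch steps of the paper were not used.

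Here TPM and estimated counts were summed per gene, and counts were rounded. Genes reaching a CPM of 0.5 in 3 or more pools were kept, and females were compared with males by edgeR 4.0.16 (TMM, robust quasi-likelihood fit, no covariate, Benjamini-Hochberg adjusted p under 0.1). Shares were compared by exact permutation tests, whose p cannot go below 0.1. The alternatives were DESeq2 1.42.0, RLE factors, length offsets, no filter, a filter of at least 1 CPM in all 6 pools, the replicate number as a block, thresholds of 0.05 or of an absolute log2 fold change above 1, coding transcripts only, reads in place of TPM, and each replicate left out in turn. The fits ran in R 4.3.3, other steps in Python 3.11.15 with SciPy 1.17.1. Reads are not independent molecules, so counts carry more than counting error. Coordinates and sequences are from GENCODE M39 on GRCm39, where all 28 transcripts were found, 12 of them in the same version.

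All 9 genes were named. Of each other list, the 2 genes of highest mean TPM and up to 2 of smallest p were named, and the 3 genes nearest in pattern to each filament gene. Some items that these rules name are not reported here. Genes listed as under 0.05 TPM, transcripts, Gap43, Calca, Dnajb6, Krt7, Krt10, Krt18, Krt20, Krt23, Rgs5, Notch3, Kcnj8, Lum and Pdgfra were named after their values were seen. The members and lists were chosen with earlier results of these data known.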

Additional observations from a re-analysis of the deposited data

How the results depend on the processing

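With 3 pools per sex, 2 mice in each, and 1 pool rich in muscle transcripts, small differences in filament genes could not be detected. The number of filament genes called was 0 under every alternative, with adjusted p of 0.602 or above. Over all genes 10 were called, against 49 with no filter on low counts, 4 with the stricter filter, 159 with DESeq2 and 3 to 8 with a replicate left out. Same-numbered pools did not deviate together (r = -0.174, -0.123 and -0.0922 across genes). With 3 pools per sex, these values cannot show whether the numbers stand for a pairing. With the replicate block 5 genes were called and no filament gene. With length offsets Nes turned to -0.0024 (log2, female over male). By reads in place of TPM, the leading share of Prph differed by 0.676 points and that of Nes by -0.178, both of the other sign. Leaving out 1 replicate, the log2 fold change ran from -0.38 to -0.06 for Nefl, -0.49 to -0.11 for Nefm, -0.18 to -0.04 for Nefh, -0.122 to 0.0785 for Prph, -0.16 to 0.50 for Gfap, -0.11 to 0.19 for Nes, -0.0944 to 0.0811 for Vim, -0.46 to 1.99 for Des and -0.25 to 0.26 for Synm. The axonal share difference ran from -0.0625 to 0.00153 points and that of the Nefl share from -2.50 to 0.620. Leading shares ran from -0.343 to 0.0655 points for Nefm, -7.75 to 1.48 for Prph, -3.02 to 1.88 for Des and -4.93 to 4.70 for Synm. Of 264 alternative values in all, 151 of those with a replicate left out and 82 of the others were classed as unchanged. For this, fold changes had to keep their direction and their side of the threshold, and shares their direction alone. Mean TPM had to move by less than the spread between pools, and counts of called genes to stay within a set factor of the main count. Sizes did move, as for the fold change of Des, at 0.64 with the replicate block.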
